A study of Mus musculus with 18 samples.

Results

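Gene expression was compared between the brain tissue labelled MDTH and the prefrontal cortex (PFC) of Diversity Outbred mice. All 6 MDTH libraries were set against all 6 PFC libraries, which makes 12 of the 18 libraries in the series. In each tissue 3 libraries came from high performing and 3 from low performing mice, and the tissue means were averaged over the performance groups. The remaining 6 libraries, labelled HPF, served only to show where another tissue lay. The labels do not spell out MDTH or HPF; the series title places its receptor in the thalamus. Diversity Outbred mice descend from several inbred founder strains and are kept outbred, so that no animal shares its genome with another. The sources used here do not give sex, age, any treatment, the test that ranked performance or the borders of the dissections. The labels name separate samples but do not say which animals they came from, and the spread behind the p-values may thus be technical in part.

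The thalamus relays and modulates signals on their way to the cortex, and its mediodorsal nucleus is reciprocally connected with the prefrontal cortex. Its relay neurons release glutamate, load their vesicles mainly through VGLUT2 and use T-type calcium and HCN pacemaker channels to move between single-spike and burst firing. In rodents most thalamic nuclei hold few local interneurons, and inhibition comes largely from the thalamic reticular nucleus. The cortex instead combines pyramidal neurons, which use VGLUT1, with many kinds of local GABA-releasing interneurons.

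The values were normalized counts, 1 per gene and library. They were compared as log2(normalized count + 1) among the 18115 genes whose mean over the 12 libraries was at least 10. The worth of 1 read, taken as the most frequent low value of a library, puts its depth at an estimated 42874301 to 47535071 reads in MDTH and 41098043 to 48848640 reads in PFC. The HPF libraries were deeper, at an estimated 76668860 to 88706089 reads, and their names have another style. Where HPF values are given, tissue and set of libraries cannot be told apart. These estimates are rough: the share of low values that were whole multiples of that worth, within 0.02, was 26.8% to 71.0% in MDTH and 32.5% to 67.1% in PFC, and under 50% in 5 of the 12 libraries. A gene is said to have passed where the adjusted p of limma's moderated test (Benjamini-Hochberg over all genes tested) was below 0.05. Differences are MDTH minus PFC on that log2 scale, where low genes appear less changed than they are, and are given with their standard error (SE). Levels of a gene are the lowest, median and highest normalized count of the 6 libraries of a tissue. MDTH and PFC libraries with the same number in their titles deviated from their group means together, and a fit with that number as a block is given where it changes a call. The block includes low performer 2, whose pairing is in doubt, as the closing observations show. Fewer cells of a type and less RNA per cell cannot be told apart in bulk tissue.

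Markers of neighbouring structures and of blood were uneven between libraries. The 5 choroid plexus markers (Ttr, Kl, Folr1, Clic6 and Kcnj13) summed to between 2149 and 10868 normalized counts in MDTH. In PFC they summed to 146844 in high performer 1, 125026 in low performer 2 and 75558 in low performer 3, against at most 4697 in the other 3 PFC libraries. PFC low performer 2 also had the highest sums of 5 blood markers (41971) and 5 meningeal markers (23178). The 6 habenular markers summed to 25037 in MDTH low performer 3 and 8706 in MDTH low performer 2, against 1089 to 2999 in the other 4 MDTH libraries and 2095 to 3415 in PFC. The 3 reticular nucleus markers (Six3, Ecel1 and Isl1) summed to 574 to 884 in the low performers of MDTH and 121 to 195 in its high performers. Low performer libraries also differ from high performer libraries of both tissues in the style of their library names, so performance cannot be told apart from a set of libraries named in another style.

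**Figure D1:**
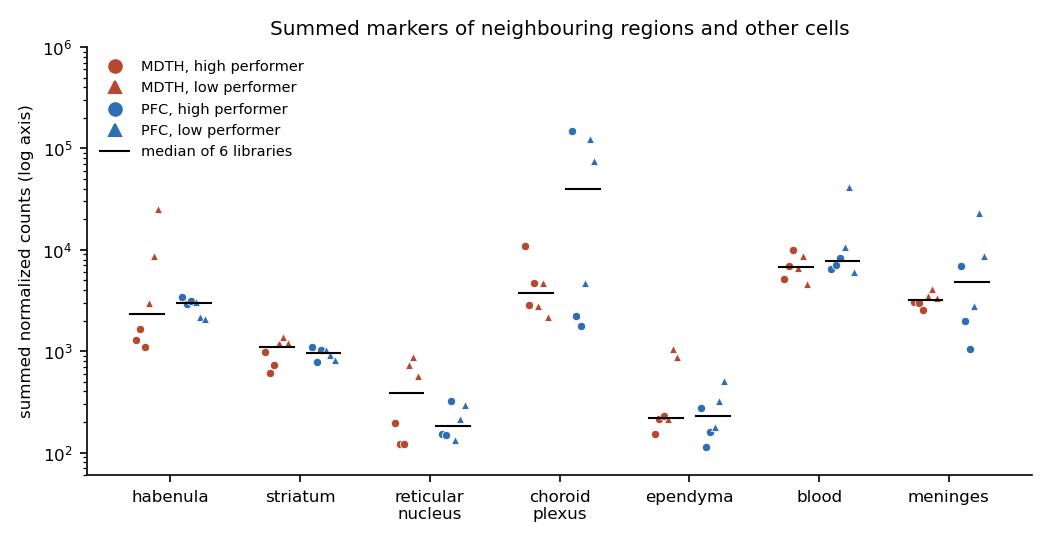
Summed normalized counts (log axis) of markers of the habenula, striatum, reticular nucleus, choroid plexus, ependyma, blood and meninges in the 6 MDTH (red) and 6 PFC libraries (blue), with circles for high and triangles for low performers and bars for medians. The choroid plexus sum lies between 75558 and 146844 in 3 PFC libraries, and the habenular sum reaches 25037 in 1 MDTH library.

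Both tissues carried the markers of their labels. Prkcd, the delta isoform of protein kinase C and a marker of thalamic relay neurons (ENSMUSG00000021948, GRCm38 chromosome 14, 30595354 to 30626210, minus strand), had 11873, 44112 and 85715 in MDTH, against 199, 252 and 500.4 in PFC. The difference was 6.91 (SE 0.24), with an adjusted p of 2.3e-09. Lef1, a transcription factor that acts with beta-catenin in Wnt signalling (ENSMUSG00000027985, GRCm38 chromosome 3, 131110471 to 131224356, plus strand), had 2894, 4124 and 5466 in MDTH, against 93.5, 195 and 495 in PFC, a difference of 4.41 (SE 0.18). Amotl1, a protein of cell junctions that binds the growth regulator YAP (ENSMUSG00000013076, GRCm38 chromosome 9, 14541966 to 14645056, minus strand), had 15145, 24695 and 38387 in MDTH, against 1334, 1435 and 1613 in PFC, a difference of 4.05 (SE 0.11). The lowest MDTH library lay above the highest PFC library for all 3 genes, and the high performers of MDTH lay above its low performers for Prkcd and Amotl1.

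Tbr1, a T-box factor of deep-layer pyramidal neurons (ENSMUSG00000035033, GRCm38 chromosome 2, 61802930 to 61814114, plus strand), had 81.5, 101 and 157 in MDTH, against 11066, 13892 and 16624 in PFC, a difference of -7.00 (SE 0.14). Neurod6, a basic helix-loop-helix factor of pyramidal neurons (ENSMUSG00000037984, GRCm38 chromosome 6, 55677822 to 55681263, minus strand), had 102, 152 and 257 in MDTH, against 7539.5, 8651 and 9913 in PFC, a difference of -5.79 (SE 0.16). Emx1, a homeobox gene of the developing pallium (ENSMUSG00000033726, GRCm38 chromosome 6, 85187438 to 85204462, plus strand), had 4.43, 10 and 15.3 in MDTH, against 648, 679 and 848 in PFC, a difference of -6.15 (SE 0.24). Every PFC library lay above every MDTH library for each of them. The remaining signal in MDTH was low but not 0, at 109 ± 28.2 normalized counts of Tbr1 (SD, n = 6). HPF held 1959.6, 2614 and 3613 of Tbr1 and 606, 797 and 866 of Emx1.

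**Figure D2:**
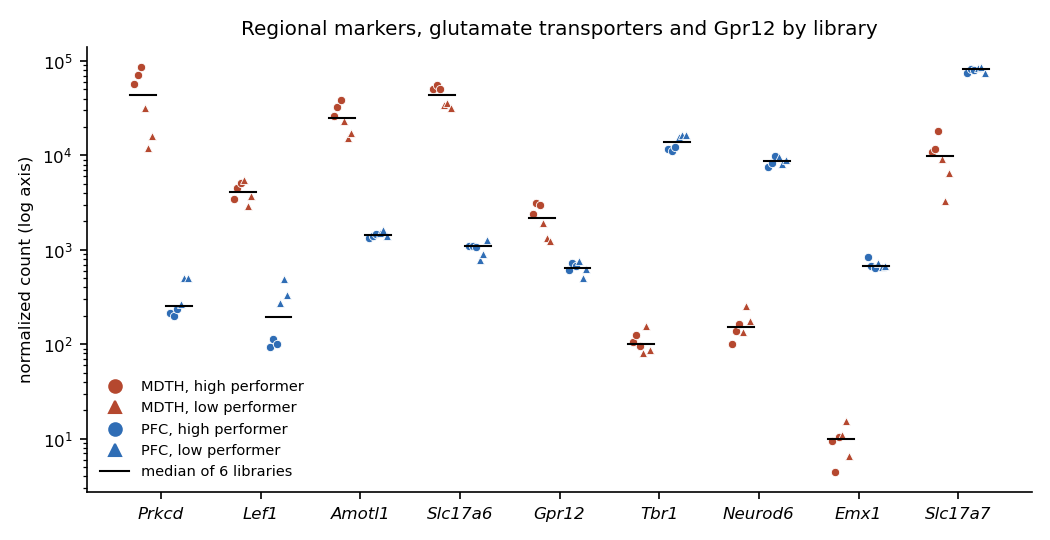
Normalized counts (log axis) of the 6 regional markers, the vesicular glutamate transporters Slc17a6 and Slc17a7, and Gpr12 in each MDTH (red) and PFC (blue) library, with circles for high and triangles for low performers and bars for medians. The tissues do not overlap for any of the 9 genes, and Gpr12 shows the smallest difference at 1.66 on the log2 scale.

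Gpr12, the orphan receptor that raises cAMP without an established ligand (ENSMUSG00000041468, GRCm38 chromosome 5, 146582398 to 146585239, minus strand), had 1251, 2152 and 3118 in MDTH, against 501, 646 and 757 in PFC. Every MDTH library was above every PFC library, with a difference of 1.66 (SE 0.13) and an adjusted p = 1.6e-06. The difference was 2.07 between high performers and 1.25 between low performers, and these did not differ past the threshold (interaction adjusted p = 0.154). HPF held 1424, 1457 and 1649, above every PFC library and inside the range of MDTH. Of its relatives, Gpr3 had 256, 471 and 598 in MDTH, against 305, 413 and 723 in PFC and Gpr6 9.17, 26.2 and 40.4 in MDTH, against 17.1, 33 and 67.3 in PFC, neither past the threshold (differences 0.01 and -0.66).

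Over all genes, the tissues differed widely and in both directions. Of the genes tested, 7074 passed, which is 39.1%, with 3567 (19.7%) higher and 3507 (19.4%) lower in MDTH. The libraries of the tissues did not overlap for 3171 genes, or 17.5%. Over 2-fold apart, past the threshold and without overlap were 771 genes higher (4.26%) and 1038 genes lower in MDTH (5.73%). Of these, 108 were over 16-fold higher and 168 over 16-fold lower. Of the 7074 genes that passed, 6922 had the same direction in high and in low performers. The first principal component, with 43.9% of the variance, separated the tissues, and the second, with 17.5%, separated low from high performers in both. Leaving out the 3 PFC libraries of high choroid plexus markers gave 2986 genes higher and 2830 lower, and leaving out the 2 MDTH libraries of highest habenular markers gave 2759 and 2791.

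Of the 771 genes higher in MDTH, 581 had every HPF library below every MDTH library. Of the 1038 genes lower in MDTH, 655 had every HPF library above every MDTH library, and 384 had every HPF library below every PFC library. HPF libraries differ from the others in depth as well as in tissue. Among protein-coding genes 4.46% were in the higher and 5.83% in the lower group. Intergenic long noncoding RNAs were there more often, at 5.83% and 9.90%, and processed pseudogenes less, at 0.483% in each; these shares are descriptions without a test.

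**Figure D3:**
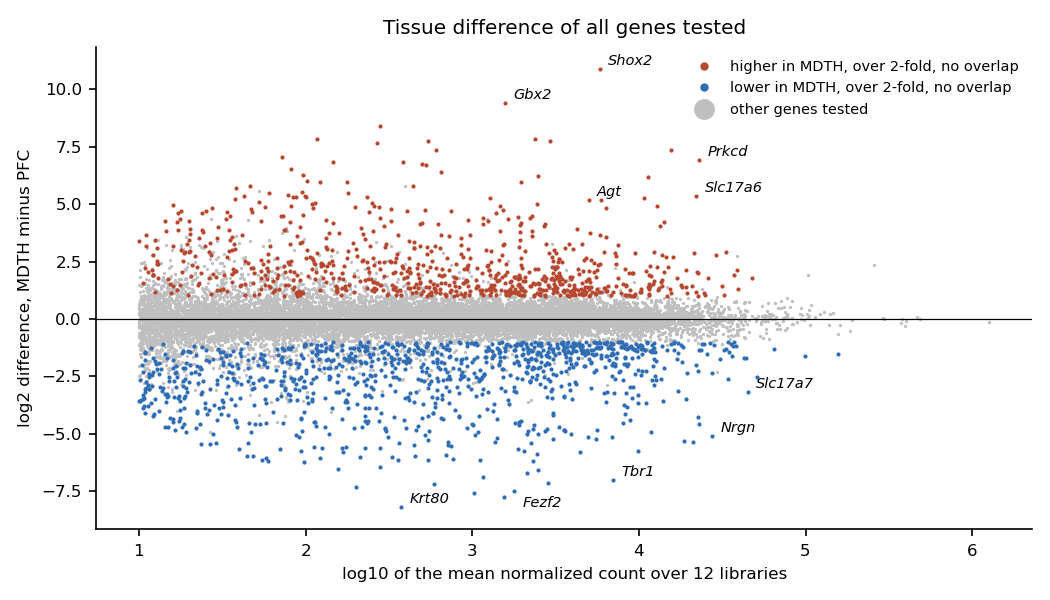
Difference between MDTH and PFC (log2, vertical) against the log10 mean normalized count over the 12 libraries (horizontal) for the 18115 genes tested, with 771 genes over 2-fold higher in red, 1038 over 2-fold lower in blue, both without overlap, and all others in grey. Shox2 at 10.87 and Krt80 at -8.18 lie at the ends of the range among the genes named.

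The 12 genes furthest above PFC included the homeobox factors Shox2, Gbx2, Lhx9 and Irx2. Shox2, a homeobox factor of thalamic relay neurons (ENSMUSG00000027833, GRCm38 chromosome 3, 66971727 to 66981771, minus strand), had 7184, 9959 and 18666 in MDTH, against 1.11, 4.82 and 13.1 in PFC, a difference of 10.87 (SE 0.42). Gbx2, a homeobox factor needed for the formation of the thalamus (ENSMUSG00000034486, GRCm38 chromosome 1, 89927956 to 89931179, minus strand), had 1977, 3452 and 3928 in MDTH, against 1.44, 4.15 and 5.11 in PFC, a difference of 9.39 (SE 0.23). Lhx9, a LIM-homeobox factor, had 3806, 4557 and 5913 in MDTH, against 8.59, 22 and 35.2 in PFC, a difference of 7.83 (SE 0.17). The highest PFC library of these 3 genes held 35.2 normalized counts, of Lhx9, and the lowest MDTH library 1977, of Gbx2. Tcf7l2, the partner of Lef1 in Wnt transcription and a known regulator of thalamic neuron identity (ENSMUSG00000024985, GRCm38 chromosome 19, 55741820 to 55933654, plus strand), had 23166, 31178 and 37512 in MDTH, against 108, 174 and 427 in PFC, a difference of 7.33 (SE 0.15). Nhlh2, a neuronal basic helix-loop-helix factor, had 666, 1297 and 1809.6 in MDTH, against 3.59, 5.75 and 12.2 in PFC, a difference of 7.33 (SE 0.32). Irx2, an Iroquois homeobox gene that also marks the habenula, had 169, 336 and 1440.3 in MDTH, against 0, 0 and 9.05 in PFC, a difference of 7.66 (SE 0.63), and was listed at 0 in part of the PFC libraries.

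The other genes of this group include genes for surface, matrix and receptor proteins, beside Abhd12b and the kinase gene Prkcd given above. Slitrk6, a synapse-organizing membrane protein, had 3364, 6256 and 7953 in MDTH, against 17.4, 23.9 and 34.6 in PFC, a difference of 7.75 (SE 0.18). Frem3, an extracellular matrix protein, had 23.4, 576 and 1837 in MDTH, against 0, 3.14 and 13.7 in PFC, a difference of 6.84 (SE 0.98); its MDTH libraries spread widely. Glra1, the alpha-1 subunit of the glycine receptor, had 446, 1009 and 1464 in MDTH, against 4.87, 7.02 and 13.3 in PFC, a difference of 6.75 (SE 0.27). Adra2b, an alpha-2 adrenergic receptor, had 398, 1089 and 1635 in MDTH, against 3.73, 7.68 and 16.3 in PFC, a difference of 6.71 (SE 0.29). Abhd12b, a member of a hydrolase family, had 195, 1085 and 2319.9 in MDTH, against 0, 3.82 and 9.16 in PFC, a difference of 7.75 (SE 0.59). In HPF the median was 3.17 for Glra1, 6.7 for Adra2b and 80.7 for Shox2.

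Of the genes furthest below PFC, Krt80, a keratin, had 0, 1.31 and 2.6 in MDTH, against 377, 577 and 1459 in PFC, a difference of -8.18 (SE 0.41), and was also near 0 in HPF, with 3.26, 4.74 and 8.06. Rspo2, a secreted enhancer of Wnt signalling, had 2.63, 10.6 and 18.2 in MDTH, against 1425, 1912 and 2972 in PFC, a difference of -7.55 (SE 0.37). Fezf2, a zinc-finger factor that specifies subcortically projecting neurons (ENSMUSG00000021743, GRCm38 chromosome 14, 12342094 to 12348189, minus strand), had 11.8, 15.2 and 37.2 in MDTH, against 3083, 3471 and 4266 in PFC, a difference of -7.46 (SE 0.28). The highest value of these 3 genes in MDTH was 37.2 normalized counts, of Fezf2, and the lowest in PFC 377, of Krt80. Hs3st2, a heparan sulfate sulfotransferase, had 9.03, 53.8 and 104 in MDTH, against 2901, 3949.8 and 6007 in PFC, a difference of -6.68 (SE 0.26), and its HPF libraries (27.1, 65.3 and 107) lay in the range of MDTH. Kcnj4, an inward-rectifier potassium channel, had 29.1, 50.9 and 105 in MDTH, against 3387, 5053 and 6219 in PFC, a difference of -6.56 (SE 0.19); here HPF, at 4057, 4696 and 6073, lay in the range of PFC.

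The list of 25 thalamic neuron genes and the list of 25 cortical excitatory neuron genes were chosen with earlier results of these data known, so their direction is no independent evidence. Of the thalamic list 23 were higher and 2 did not pass, with a median of 4.20 against 0.00 over all genes. Over all genes tested, 19.7% were higher and 19.4% lower, the shares to set beside the counts of every list that follows. Synpo2, an actin-binding protein, had 11111, 24478 and 31264 in MDTH, against 164, 282 and 465 in PFC, a difference of 6.16 (SE 0.24). Grid2ip, a scaffold that binds delta glutamate receptors, had 2945, 5279 and 6932 in MDTH, against 28.5, 75.2 and 104 in PFC, a difference of 6.22 (SE 0.19). Rora, a nuclear receptor of thalamic and cerebellar neurons, had 15062, 40559 and 66840.4 in MDTH, against 3634, 4366 and 5926 in PFC, a smaller difference of 2.89 (SE 0.19). Scn4b, a sodium channel beta subunit on the list, overlapped between the tissues with 1183, 4801 and 6333 in MDTH, against 4159, 5548 and 7917 in PFC and a difference of -0.70.

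Of the cortical list 19 were lower, 3 higher and 3 did not pass, with a median of -2.61. Bcl11b, a zinc-finger factor of corticospinal neurons, had 195, 383 and 520.5 in MDTH, against 4923, 5604 and 6795 in PFC, a difference of -4.09 (SE 0.16). Mef2c, a factor of activity-dependent transcription, had 4187, 9065 and 13308 in MDTH, against 33586, 36702 and 42215 in PFC, a difference of -2.25 (SE 0.16). The exceptions were upper-layer genes: Rorb, a nuclear receptor of layer 4 neurons, was higher in MDTH with 2308, 4884 and 8296 in MDTH, against 1102, 1357 and 1524 in PFC and a difference of 1.80 (SE 0.14). Cux2, with a difference of 1.01 (SE 0.23), and Cux1, with 0.90 (SE 0.07), were higher too, and none of the 3 overlapped between MDTH and PFC. Foxp1 did not pass (0.11), while its relative Foxp2, a forkhead factor of speech-related circuits in humans, had 5997, 7593 and 9147 in MDTH, against 1446, 1611 and 2446 in PFC, a difference of 2.09 (SE 0.14).

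Promoters of 4 genes are shown as examples of what the sequence upstream of such genes holds, 2 from the genes higher and 2 from the genes lower in MDTH. They were chosen after their sequences were seen, because each holds at least 1 of the words searched. The sequences are RefSeq promoters of build GRCm38.p6, 250 bases before to 50 bases after the first listed start, 5′ to 3′ on the gene's strand. Capitals mark TAATTA, a core of many homeodomain sites, in Synpo2 and Tbr1, CAGATG, an E-box of neuronal basic helix-loop-helix factors, in Nhlh2, and TGACGTCA, the full cAMP response element, in Sst.
Synpo2, chr3:123236100-123236399, minus strand: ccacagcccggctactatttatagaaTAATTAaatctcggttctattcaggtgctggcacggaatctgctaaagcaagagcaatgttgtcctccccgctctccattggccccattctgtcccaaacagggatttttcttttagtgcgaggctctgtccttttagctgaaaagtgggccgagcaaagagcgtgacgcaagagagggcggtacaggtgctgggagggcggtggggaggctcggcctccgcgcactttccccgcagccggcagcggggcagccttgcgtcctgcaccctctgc
Nhlh2, chr3:102009895-102010194, plus strand: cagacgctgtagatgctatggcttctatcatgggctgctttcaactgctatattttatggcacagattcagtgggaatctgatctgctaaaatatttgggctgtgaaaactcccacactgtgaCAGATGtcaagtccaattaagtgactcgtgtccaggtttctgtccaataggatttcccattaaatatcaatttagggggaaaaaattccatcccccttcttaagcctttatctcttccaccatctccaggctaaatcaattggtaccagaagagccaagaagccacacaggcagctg
Tbr1, chr2:61804203-61804502, plus strand: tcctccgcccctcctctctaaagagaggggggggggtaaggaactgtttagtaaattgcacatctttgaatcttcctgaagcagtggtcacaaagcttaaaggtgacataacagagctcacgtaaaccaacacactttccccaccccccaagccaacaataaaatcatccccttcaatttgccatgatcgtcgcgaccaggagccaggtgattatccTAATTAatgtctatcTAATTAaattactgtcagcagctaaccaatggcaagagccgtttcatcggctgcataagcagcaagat
Sst, chr16:23890795-23891094, minus strand: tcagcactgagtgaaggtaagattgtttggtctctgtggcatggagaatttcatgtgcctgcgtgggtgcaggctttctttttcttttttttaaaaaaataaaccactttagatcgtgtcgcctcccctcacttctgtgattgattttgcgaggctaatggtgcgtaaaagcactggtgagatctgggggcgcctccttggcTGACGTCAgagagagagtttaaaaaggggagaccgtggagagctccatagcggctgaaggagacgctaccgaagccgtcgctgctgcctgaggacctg

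A set of 5 words was searched on both strands in these 300-base windows of the 556 higher, 697 lower and 12568 tested genes with a promoter in the table. TAATTA stood in 3.06% of the windows of the 771 genes higher in MDTH, in 3.44% of those of the 1038 genes lower and in 2.76% of all. CAGATG or CATCTG stood in 16.2%, 12.9% and 12.3%, for the genes higher, the genes lower and all. ATCAAAG or CTTTGAT, the word bound by Tcf7l2 and Lef1, stood in 1.80%, 2.44% and 2.46%. TCACACC or GGTGTGA, a T-box word, stood in 4.50%, 4.16% and 3.42%, and TGACGTCA in 1.26%, 1.87% and 3.06%. The words do not contain each other. A match describes these letters only, and so does its absence from the window.

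Wnt pathway genes differed in both directions. Of 20 genes for Wnt, thyroid hormone and retinoid signalling 10 were higher and 8 lower in MDTH, against 19.7% and 19.4% over all genes tested. Among ligands, Wnt9b had 724, 1251 and 1829.7 in MDTH, against 3.93, 15.5 and 26 in PFC, a difference of 6.38 (SE 0.33), and Wnt3 1559, 2328 and 3287 in MDTH, against 75.9, 108 and 237 in PFC, a difference of 4.27 (SE 0.25). Wnt7b was lower, with 810.4, 948 and 1073 in MDTH, against 1706, 2276 and 2703 in PFC and a difference of -1.24 (SE 0.11). The receptor Fzd1 (2.12, SE 0.14), the pathway's transcriptional partner Ctnnb1 or beta-catenin (1.05, SE 0.06) and the feedback inhibitors Axin2 (1.05, SE 0.05) and Nkd1 (2.39, SE 0.14), both of which the pathway itself induces, were higher in MDTH without overlap. The secreted inhibitor Sfrp1 was lower, with 50, 111 and 199 in MDTH, against 621, 1084 and 2116 in PFC and a difference of -3.47 (SE 0.25), as was Dkk3, a relative of the Dickkopf inhibitors, with 255, 1214 and 2421 in MDTH, against 29881, 36579 and 43234 in PFC and -5.29 (SE 0.22). Crym, a thyroid hormone binding protein, had 33.1, 59.5 and 104 in MDTH, against 1332, 4034 and 5525 in PFC, a difference of -5.67 (SE 0.22). The thyroid hormone receptors Thra (-0.92, SE 0.08) and Thrb (-1.39, SE 0.13) were both lower in MDTH. The tissues did not overlap for any Wnt or thyroid hormone gene named here.

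The vesicular glutamate transporters differed in opposite directions. Slc17a6, which codes for VGLUT2 (ENSMUSG00000030500, GRCm38 chromosome 7, 51622006 to 51671119, plus strand), had 32071, 43298 and 55025 in MDTH, against 784, 1087 and 1267 in PFC, a difference of 5.36 (SE 0.10). Slc17a7, which codes for VGLUT1 (ENSMUSG00000070570, GRCm38 chromosome 7, 45163949 to 45176142, plus strand), had 3283, 9955 and 18331 in MDTH, against 73899, 81212 and 85224 in PFC, a difference of -3.20 (SE 0.21). Neither gene overlapped between the tissues, and within MDTH low performer 3 held the least Slc17a6 and low performer 2 the least Slc17a7. Per kilobase of exon, MDTH averaged 7985 normalized counts of Slc17a6 and 1842 of Slc17a7, and PFC 193 and 14865. Slc17a8, the VGLUT3 gene of scattered modulatory neurons, was low in both tissues and lower in MDTH, with 64.8, 114 and 194 in MDTH, against 96.5, 284 and 462 in PFC and a difference of -1.13 (SE 0.39), a call that the title block ended (adjusted p = 0.0776).

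Of 15 glutamate, GABA and glycine transporters 6 were higher and 4 lower, against 19.7% and 19.4% over all genes tested. Slc6a11, the GABA transporter GAT-3 of astrocytes, had 36174, 51874 and 57644 in MDTH, against 5373, 7577 and 8119.6 in PFC, a difference of 2.78 (SE 0.11). Slc6a9, the glycine transporter GlyT1, had 6120.4, 6947 and 7271 in MDTH, against 1811, 2026 and 4455 in PFC, a difference of 1.57 (SE 0.18). Slc1a2, the main astrocytic glutamate transporter GLT-1, was lower in MDTH with 107210.1, 116836 and 145598 in MDTH, against 172927, 191705 and 213078 in PFC and a difference of -0.66 (SE 0.07), and its partner Slc1a3 had 22264, 26459.8 and 32279.6 in MDTH, against 22704, 28898 and 30675 in PFC and did not pass. The libraries overlapped for Slc1a3 and stood apart for the other genes named.

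Of 33 genes for vesicle release 9 were higher, 15 lower and 9 did not pass, against 19.7% higher and 19.4% lower over all genes tested. Of the general machinery, Syp, the vesicle protein synaptophysin, had 68915, 80253 and 87629.5 in MDTH, against 70331, 75852 and 84237 in PFC, and Vamp2, the main vesicle SNARE, 56719, 60365 and 73594 in MDTH, against 61294, 67088 and 91321 in PFC, neither past the threshold. Isoforms of the release machinery differed more. Syt9, a fast calcium sensor of release, had 3722, 7377 and 12128 in MDTH, against 389.9, 501 and 565 in PFC, a difference of 3.92 (SE 0.19), and Vamp1, a vesicle SNARE of fast-firing neurons, 11918, 15421 and 18936 in MDTH, against 4279, 7666 and 9093 in PFC, a difference of 1.10 (SE 0.16). Stx1a, a plasma membrane SNARE, was lower with 3182, 3384 and 4144 in MDTH, against 11205, 13830.4 and 16788 in PFC and -1.96 (SE 0.10). The complexins, which clamp and promote fusion, were lower for Cplx2, with 1972, 20917 and 47375 in MDTH, against 61105, 81686 and 91456 in PFC and -2.52 (SE 0.32), and for Cplx3, with 37.7, 51.8 and 64.2 in MDTH, against 557, 1677 and 3439 in PFC and -4.75 (SE 0.45). Cplx2 spread widely within MDTH, with the high performers at the low end. The tissues overlapped for Syp and Vamp2 among the genes named here.

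**Figure D4:**
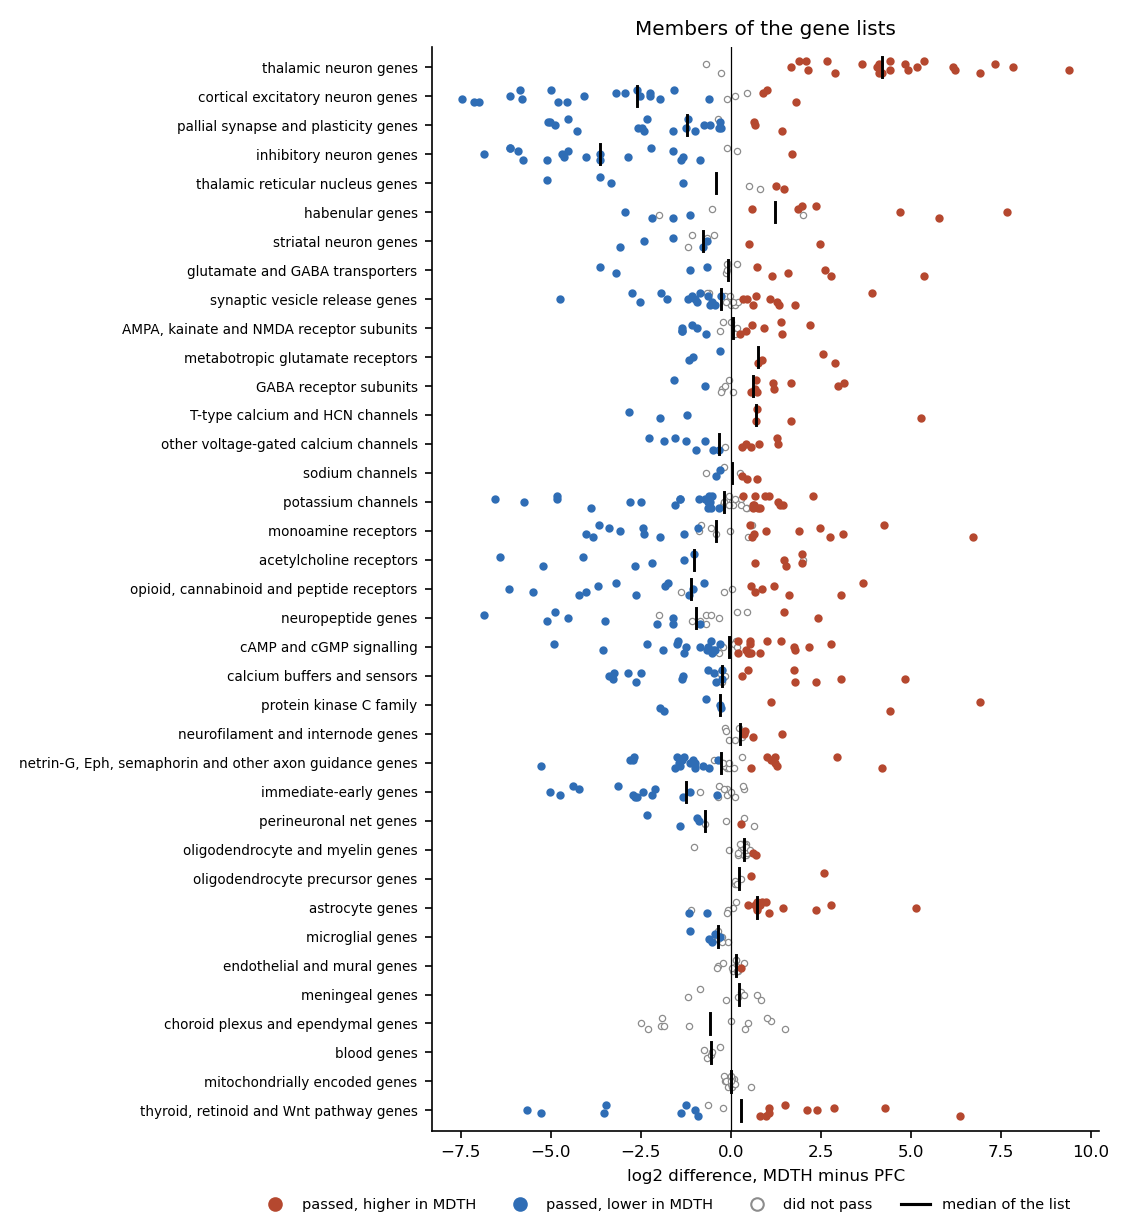
Difference between MDTH and PFC (log2) of each tested member of 37 gene lists, filled red where it passed and was higher in MDTH, filled blue where it passed and was lower, and open where it did not pass, with a bar at the list median. Thalamic neuron genes centre at 4.20, inhibitory neuron genes at -3.63 and cortical excitatory neuron genes at -2.61, while mitochondrially encoded genes stay close to 0.

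Glutamate receptor subunits differed in both directions. Of 18 AMPA, kainate and NMDA receptor subunits 7 were higher and 6 lower in MDTH, against 19.7% and 19.4% over all genes tested. The AMPA receptor subunits Gria2 (11119.8, 13130.4 and 14375 in MDTH, against 28445, 33397 and 36677 in PFC) and Gria3 (3519.9, 6969.7 and 11803 in MDTH, against 13141, 17556 and 19446 in PFC) were lower at -1.36 (SE 0.06) and -1.35 (SE 0.13), while Gria4, a subunit of fast currents, was higher with 6665, 7958 and 11875 in MDTH, against 4570.0, 5719 and 6277 in PFC and 0.59 (SE 0.10). Gria1 had 15295, 20906 and 25705 in MDTH, against 16090.5, 18097 and 21099.8 in PFC and did not pass. The obligatory NMDA receptor subunit Grin1 had 20682, 22645 and 27365 in MDTH, against 22929, 27016 and 33117 in PFC and passed only with the title block (lower, at -0.22, adjusted p = 0.0299). Of its partners, Grin2d had 3002, 3876 and 5401 in MDTH, against 634, 805 and 1160.0 in PFC, a difference of 2.19 (SE 0.14), and Grin3a 6015, 6764 and 8139 in MDTH, against 1981, 2806 and 3147 in PFC, a difference of 1.39 (SE 0.12). Grin2a was lower with 4284, 5983 and 8926 in MDTH, against 7176, 9121 and 14109 in PFC and -0.68 (SE 0.10), with overlapping libraries. The kainate receptor subunits Grik3 (-1.35, SE 0.08) and Grik5 (-1.09, SE 0.09) were lower without overlap. Among the ionotropic subunits named, the libraries overlapped for Gria1, Grin1 and Grin2a.

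All 7 metabotropic glutamate receptors tested passed, 4 higher and 3 lower, against 39.1% that passed over all genes tested. Grm5, which acts through phospholipase C, was lower at -0.31 (SE 0.11), with overlapping libraries, and did not pass with the title block (adjusted p = 0.0658). Grm4, a presynaptic receptor that inhibits cAMP, had 5813, 9035 and 12263 in MDTH, against 1208, 1416 and 1966 in PFC, a difference of 2.55 (SE 0.14). Grm3, which lies on neurons and astrocytes, was lower with 1419, 1887 and 2243 in MDTH, against 3586, 3744 and 4342 in PFC and -1.06 (SE 0.06).

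Of 16 GABA receptor subunits 9 were higher and 2 lower, against 19.7% and 19.4% over all genes tested. Gabra4, an alpha subunit of the extrasynaptic receptors that carry tonic inhibition in relay neurons, had 8399, 20239.8 and 39552 in MDTH, against 4711, 5677 and 6886 in PFC, a difference of 1.68 (SE 0.16). Its partner Gabrd, the delta subunit, had 1592, 5069.6 and 11983 in MDTH, against 1452, 1956 and 2546 in PFC, a difference of 1.19 (SE 0.26), with MDTH low performers 2 and 3 inside the range of PFC. Gabra5, the extrasynaptic alpha subunit of pyramidal cells, was lower with 1284, 1608 and 1833 in MDTH, against 4004, 4709 and 5476 in PFC and -1.59 (SE 0.11). Both subunits of the metabotropic GABA-B receptor were higher in MDTH, Gabbr1 by 0.71 (SE 0.08) and Gabbr2 by 0.74 (SE 0.10), with no overlap.

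Genes of GABA-releasing neurons were lower in MDTH. Of 21 inhibitory neuron genes 18 were lower, 1 higher and 2 did not pass, with a median of -3.63. The shares over all genes tested were 19.4% lower and 19.7% higher. Gad1, which codes for an enzyme that makes GABA, had 590.1, 1165 and 9170.3 in MDTH, against 15318, 16770.2 and 19659 in PFC, a difference of -3.63 (SE 0.37), and Gad2, its paralog, 437, 1497 and 9547 in MDTH, against 9099, 10224 and 11425 in PFC, a difference of -2.86 (SE 0.27). MDTH low performer 1 held 9547 normalized counts of Gad2, inside the range of PFC, and the MDTH low performers as a group held the most of Gad1, Gad2 and the vesicular GABA transporter Slc32a1. The 3 reticular nucleus markers were also highest in the low performers of MDTH, and their part in these values was not tested. The difference of Gad2 was -4.46 in high and -1.26 in low performers (interaction adjusted p = 0.0171).

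The factors of cortical interneurons were low in every MDTH library, its low performers included. Dlx1, a homeobox factor of interneurons from the ganglionic eminences (ENSMUSG00000041911, GRCm38 chromosome 2, 71528113 to 71533981, plus strand), had 19.9, 27.8 and 58.7 in MDTH, against 1767, 2058 and 2835 in PFC, a difference of -6.13 (SE 0.20). Lhx6, a factor of interneurons from the medial eminence, had 12.3, 22.5 and 43.9 in MDTH, against 1265, 1352 and 1475 in PFC, a difference of -5.92 (SE 0.21). Vip, the peptide of disinhibitory interneurons (ENSMUSG00000019772, GRCm38 chromosome 10, 5639218 to 5647617, plus strand), had 12.7, 18.3 and 23.6 in MDTH, against 1922, 2091 and 3500.4 in PFC, a difference of -6.86 (SE 0.18). None of these 3 overlapped between the tissues, and none passed the test of a difference between high and low performers. Sst, the peptide of dendrite-targeting interneurons whose promoter is printed with those of the factors, had 37, 354 and 968 in MDTH, against 7363, 9220.4 and 11833 in PFC, a difference of -5.11 (SE 0.32), and differed more in high performers (-6.60) than in low performers (-3.62, interaction adjusted p = 0.0384). Pvalb, the calcium buffer of fast-spiking cells in both the cortex and the reticular nucleus, was lower at -1.34 (SE 0.25), with overlapping libraries at 471, 950.2 and 1416 in MDTH, against 1376, 2344 and 2975 in PFC. The member that was higher was Adarb2, a catalytically inactive relative of the RNA editing enzymes, with 1641, 6327 and 10843 in MDTH, against 1011, 1548 and 1797 in PFC and 1.70 (SE 0.26), its lowest MDTH library inside the range of PFC.

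Channels that shape thalamic firing differed by isoform. Hcn4, the slow pacemaker channel, had 1548, 2543 and 3254 in MDTH, against 47.3, 64.3 and 73.3 in PFC, a difference of 5.28 (SE 0.17). Hcn2, an HCN channel of relay neurons, had 8421, 10855 and 13776 in MDTH, against 5634, 6383 and 6993 in PFC, a difference of 0.74 (SE 0.09). The T-type calcium channel Cacna1g, which carries the burst current of relay neurons, had 14551, 20083 and 21173 in MDTH, against 4467, 5127 and 9742 in PFC, a difference of 1.66 (SE 0.16). Its relatives Cacna1h (417, 817 and 1164 in MDTH, against 1735, 2920.3 and 5191 in PFC) and Cacna1i (1013, 3039 and 4873 in MDTH, against 4268, 6272 and 7961 in PFC), channels of reticular and other neurons, were lower at -1.98 (SE 0.21) and -1.21 (SE 0.22). All 7 T-type and HCN genes passed, 4 higher and 3 lower, against 39.1% that passed over all genes tested. Among the channel genes named here, Cacna1i was the one with overlapping libraries.

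Among 15 other voltage-gated calcium channel genes 6 were higher and 8 lower, against 19.7% and 19.4% over all genes tested. Cacna1c, an L-type channel, had 4932, 8424 and 11066 in MDTH, against 2481, 2883 and 4342 in PFC, a difference of 1.30 (SE 0.14). Cacna1e, the R-type channel, had 702, 3136 and 7584 in MDTH, against 10507, 12030.3 and 14009 in PFC, a difference of -2.28 (SE 0.29). Of 8 sodium channel genes 3 were higher and 2 lower, without a gene over 2-fold apart: Scn1a had 13922, 19212 and 25582 in MDTH, against 7503, 11275 and 14526 in PFC and a difference of 0.74 (SE 0.16), and Scn2a 16522, 17796 and 22052 in MDTH, against 20859.9, 24388 and 31875 in PFC and -0.42 (SE 0.09). The libraries overlapped for both sodium channel genes and stood apart for both calcium channel genes.

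Potassium channel genes differed in both directions, with 13 of 45 genes higher and 20 lower in MDTH, against 19.7% and 19.4% over all genes tested. Kcnn3, a calcium-activated SK channel, had 3847, 5010.2 and 6082 in MDTH, against 888, 1009 and 1177 in PFC, a difference of 2.27 (SE 0.08). Kcnc2, a Kv3 channel of fast-spiking neurons, had 8864, 21982 and 36363 in MDTH, against 6063, 7247 and 9828 in PFC, a difference of 1.37 (SE 0.17), with MDTH low performers 2 and 3 below the highest PFC library, high performer 2. Kcnv1, a silent subunit that modifies Kv2 channels, had 26.3, 98.5 and 141 in MDTH, against 2799, 4161 and 5078 in PFC, a difference of -5.76 (SE 0.30). Kcnh3, an EAG-family channel of forebrain neurons, had 153, 213 and 444 in MDTH, against 5574, 6880.2 and 7629 in PFC, a difference of -4.83 (SE 0.22), and Kcnh1 of the same family 63.3, 341 and 602 in MDTH, against 5236, 6656 and 8392 in PFC, -4.83 (SE 0.20). Kcnq5, an M-current channel, was lower at -2.81 (SE 0.27), while its relative Kcnq3 (0.28) did not pass. Kcnj10, the inward rectifier of astrocytes, had 40937, 45959 and 51464 in MDTH, against 14199.8, 16654 and 21536 in PFC, a difference of 1.44 (SE 0.08). The lowest MDTH library of Kcnn3 and Kcnj10 lay above every PFC library, and the highest of Kcnv1, Kcnh1, Kcnh3 and Kcnq5 below.

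Receptors for modulatory transmitters differed in both directions. Of 27 monoamine receptors 10 were higher and 10 lower in MDTH, against 19.7% and 19.4% over all genes tested. For serotonin, Htr7, which raises cAMP, had 3141, 3367 and 3652 in MDTH, against 251, 390.5 and 631 in PFC, a difference of 3.11 (SE 0.21), and Htr2c, coupled to phospholipase C, 9757, 12517 and 15758 in MDTH, against 1378, 1671 and 2692 in PFC, a difference of 2.75 (SE 0.16). Htr2a, the target of classical psychedelics, was lower with 17, 179.8 and 478 in MDTH, against 878, 1201 and 1755 in PFC and -3.66 (SE 0.15), and Htr1a, an inhibitory receptor, with 19.6, 98.7 and 357 in MDTH, against 881, 977 and 1324 in PFC and -3.84 (SE 0.16). Both of these differed more in high than in low performers, with interaction adjusted p of 5.1e-05 for Htr2a and 3.7e-04 for Htr1a. For dopamine, Drd2, which lowers cAMP, had 359, 424 and 616 in MDTH, against 52.4, 85.7 and 128 in PFC, a difference of 2.48 (SE 0.22), and Drd1, which raises it, 69.4, 115 and 251 in MDTH, against 815, 1114 and 1422 in PFC, a difference of -3.09 (SE 0.21). Adora2a, another gene of Drd2-bearing striatal neurons, had 38.4, 66.8 and 128 in MDTH, against 88.4, 110.4 and 138 in PFC and a difference of -0.66 (SE 0.22), which did not pass with the title block (adjusted p = 0.126). Adra1d, an alpha-1 adrenergic receptor, was lower with 39.5, 84.4 and 228 in MDTH, against 526, 1031 and 1432 in PFC and -3.39 (SE 0.30), the reverse of Adra2b. Of the monoamine receptors named, none had overlapping libraries.

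For acetylcholine, 5 of 13 receptors were higher and 7 lower, against 19.7% and 19.4% over all genes tested. Chrm1, a muscarinic receptor of pyramidal cells, had 171, 313 and 403 in MDTH, against 9917, 10492 and 12957 in PFC, a difference of -5.22 (SE 0.18), and Chrm4 18.3, 90.7 and 121 in MDTH, against 679, 1020.2 and 1816 in PFC, a difference of -4.10 (SE 0.38). Chrm2, a muscarinic receptor that inhibits cAMP, was higher with 1185, 2796 and 4719 in MDTH, against 1489, 1705 and 1917 in PFC and 0.68 (SE 0.19), with overlap, and did not pass without the 3 PFC libraries of high choroid plexus markers (adjusted p = 0.125) or without the 2 MDTH libraries of highest habenular markers (adjusted p = 0.159). The most common nicotinic receptor of the brain is built from Chrna4 and Chrnb2: Chrna4 had 7811, 12144 and 17754 in MDTH, against 3865, 4138 and 4924 in PFC, a difference of 1.46 (SE 0.14), and Chrnb2 10340.4, 11777 and 13596 in MDTH, against 3887, 4049 and 4525 in PFC, a difference of 1.52 (SE 0.07). Chrna5, its accessory subunit, was lower with 1.31, 4.95 and 14.6 in MDTH, against 332, 549 and 804 in PFC and -6.43 (SE 0.38). Every MDTH library held more Chrna4 and Chrnb2, and less Chrm1, Chrm4 and Chrna5, than any PFC library.

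Peptide receptors and peptides were lower more often than higher, with 12 of 22 receptors lower and 7 higher, and 9 of 20 peptide genes lower and 2 higher. The shares over all genes tested were 19.4% lower and 19.7% higher. Oprm1, the mu opioid receptor, had 539, 780.3 and 1129 in MDTH, against 57.7, 92.9 and 143 in PFC, a difference of 3.07 (SE 0.26). Oprd1, the delta opioid receptor, had 6.58, 42 and 84.8 in MDTH, against 1157, 1371 and 1841 in PFC, a difference of -5.50 (SE 0.31). Tacr3, the neurokinin B receptor, had 103, 410.0 and 685 in MDTH, against 10.7, 26.7 and 47.9 in PFC, a difference of 3.68 (SE 0.39). Cckbr, the brain cholecystokinin receptor, had 11.8, 94.2 and 213 in MDTH, against 3635, 4097 and 6366 in PFC, a difference of -6.16 (SE 0.22), and Cnr1, the CB1 cannabinoid receptor, 581, 1494 and 2461 in MDTH, against 9954, 12593 and 14705 in PFC, a difference of -3.20 (SE 0.14). Vipr1, a receptor for VIP, was lower with 87.4, 109 and 133 in MDTH, against 1639, 2209 and 2575 in PFC and -4.22 (SE 0.15). Npy, a peptide of interneurons, had 62.9, 119 and 569.6 in MDTH, against 2261, 3531 and 4662 in PFC, a difference of -4.54 (SE 0.34), and Crh, corticotropin-releasing hormone, 2.25, 6.73 and 7.9 in MDTH, against 134, 167 and 284 in PFC, a difference of -4.88 (SE 0.28). Pmch, the melanin-concentrating hormone of hypothalamic neurons, was low in both tissues and higher in MDTH with 35.6, 76.8 and 121 in MDTH, against 7.74, 10.5 and 21.1 in PFC and 2.41 (SE 0.35). None of the peptide and peptide receptor genes named here overlapped between the tissues.

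Genes of the signalling behind these receptors differed in both directions too. Of 36 genes of cAMP and cGMP signalling 15 were higher and 16 lower, against 19.7% and 19.4% over all genes tested. Adcy8, a calcium-stimulated adenylyl cyclase, had 3365, 4712 and 6593 in MDTH, against 895, 1385 and 1799 in PFC, a difference of 1.77 (SE 0.14), and Adcy1, another calcium-stimulated cyclase, 18225, 39144 and 71092 in MDTH, against 76783, 90266 and 100226 in PFC, a difference of -1.30 (SE 0.16). Among phosphodiesterases, Pde7b had 2331, 5722 and 7847 in MDTH, against 746, 1061 and 1285 in PFC, a difference of 2.18 (SE 0.15), Pde1a 241, 794 and 2296 in MDTH, against 18753, 22807 and 25117 in PFC, a difference of -4.92 (SE 0.20), and Pde2a 1089.8, 1732 and 7972 in MDTH, against 21824, 25459.9 and 29328 in PFC, a difference of -3.54 (SE 0.29). Prkg2, a membrane-bound cGMP kinase, had 1628, 2434 and 3995 in MDTH, against 254, 388 and 428 in PFC, a difference of 2.77 (SE 0.16). Rapgef4, the cAMP sensor Epac2, was lower with 7785, 8585 and 12352 in MDTH, against 38017, 44658 and 53969 in PFC and -2.34 (SE 0.10). Gnal, the G protein of odorant and dopamine receptors that stimulates cyclase, had 19521, 27265 and 33253 in MDTH, against 8474, 9666 and 12266 in PFC, a difference of 1.38 (SE 0.10). The libraries stood apart for each of these genes, and MDTH low performer 3 held far more Pde2a than the other MDTH libraries.

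Among 9 protein kinase C genes 3 were higher and 5 lower, against 19.7% and 19.4% over all genes tested. Prkch, the eta isoform, followed Prkcd with 2071, 3728 and 5058 in MDTH, against a median of 144 and at most 202 in PFC and 4.42 (SE 0.11). The conventional isoforms Prkca (1471, 2336 and 3256 in MDTH, against 7257, 7869 and 9223 in PFC) and Prkcb (7587, 8491 and 10769 in MDTH, against 28037, 35753 and 41749 in PFC) were lower at -1.86 (SE 0.08) and -1.98 (SE 0.06). Per kilobase of exon Prkcd averaged 8215 normalized counts in MDTH and 57.6 in PFC, and Prkcb 1151 in MDTH and 4573 in PFC.

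Of 25 calcium buffers and sensors 7 were higher and 13 lower, against 19.7% and 19.4% over all genes tested. Calb2, the buffer calretinin, had 6291, 12298 and 16447 in MDTH, against 315, 423 and 601 in PFC, a difference of 4.82 (SE 0.20), and Calb1, calbindin, 5981, 9685 and 12759 in MDTH, against 773, 1981 and 2745 in PFC, a difference of 2.36 (SE 0.19). Necab2, a neuronal calcium-binding protein, had 5724, 6365 and 11498 in MDTH, against 747, 806 and 1016 in PFC, a difference of 3.06 (SE 0.16). Hpca, the sensor hippocalcin, was lower with 1468, 3339 and 5051 in MDTH, against 19853, 20786 and 24928 in PFC and -2.87 (SE 0.18), and Atp2b4, a calcium pump of the plasma membrane, with 680.4, 2338 and 4978 in MDTH, against 15281, 16994 and 20286 in PFC and -3.29 (SE 0.10). The sodium-calcium exchangers parted: Slc8a3 had 3579, 4125 and 5172 in MDTH, against 1065, 1229 and 1509.9 in PFC, a difference of 1.77 (SE 0.09), and Slc8a2 3092, 3975 and 4557 in MDTH, against 18594, 21100.1 and 23476 in PFC, a difference of -2.49 (SE 0.08). The libraries of the tissues stood apart for all of these.

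Postsynaptic and plasticity genes of pallial neurons were mostly lower in MDTH, 18 of 22, with 3 higher, against 19.4% lower and 19.7% higher over all genes tested. Nrgn, neurogranin, which binds calmodulin in dendritic spines (ENSMUSG00000053310, GRCm38 chromosome 9, 37544492 to 37552904, minus strand), had 557, 1718 and 2915 in MDTH, against 33858, 43478 and 85595 in PFC, a difference of -5.07 (SE 0.20). Camk2a, the alpha subunit of the kinase of long-term potentiation, had 29342, 51908 and 62627 in MDTH, against 127084, 134605 and 205013 in PFC, a difference of -1.61 (SE 0.14), and Ddn, dendrin, 1433, 2028 and 3891 in MDTH, against 33414, 43963 and 48850.1 in PFC, a difference of -4.28 (SE 0.19). Icam5, an adhesion molecule of telencephalic dendrites, had 98.7, 280.1 and 342 in MDTH, against 6319.8, 7839.9 and 8829 in PFC, a difference of -5.01 (SE 0.20). The general scaffold Dlg4, PSD-95, was lower at -0.32 (SE 0.07) with overlapping libraries, at 29059, 30554 and 35418 in MDTH, against 32871, 37295 and 48856 in PFC. Shank3, a scaffold that links glutamate receptors to actin, was higher, with 17472, 32939 and 46460.5 in MDTH, against 8612, 10289 and 13935 in PFC and 1.42 (SE 0.16), while Shank1 was lower at -0.30 (SE 0.11). Without the 2 MDTH libraries of highest habenular markers, Dlg4 (adjusted p = 0.0677) and Shank1 (adjusted p = 0.332) did not pass.

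Immediate-early genes, which neurons switch on when active, were lower in MDTH or did not pass. Of 24 tested 14 were lower, against 19.4% over all genes tested, and 10 did not pass, with a median of -1.24. Arc, an activity-regulated synaptic gene (ENSMUSG00000022602, GRCm38 chromosome 15, 74669083 to 74672570, minus strand), had 363, 692 and 933 in MDTH, against 6252, 9531 and 38454 in PFC, a difference of -4.40 (SE 0.29), and Egr3, an activity-induced zinc-finger factor, 65.2, 133 and 182 in MDTH, against 2102, 3423 and 8542 in PFC, a difference of -5.02 (SE 0.28). Junb had 77.7, 263 and 777 in MDTH, against 1185, 1708 and 6589.5 in PFC, a difference of -3.13 (SE 0.38), and Npas4, an activity-dependent factor, 95, 145 and 347 in MDTH, against 494, 703 and 4315 in PFC, a difference of -2.60 (SE 0.44). Within PFC low performers 1 and 2 held the most of Arc, Junb and Npas4, and low performer 1 the most of Egr3. Fos, with 525, 949.6 and 4351 in MDTH, against 645, 1169 and 6786 in PFC, overlapped between the tissues and did not pass (-0.36), nor did Bdnf, the neurotrophin, with 767, 1451 and 2018 in MDTH, against 627, 1674 and 2979 in PFC and -0.12.

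Guidance and adhesion genes were mixed, with 8 of 36 higher and 17 lower, against 19.7% and 19.4% over all genes tested. Ntng1, netrin-G1, an adhesion molecule of thalamocortical axons, had 12709, 28476 and 39334 in MDTH, against 933, 1464 and 1717 in PFC, a difference of 4.20 (SE 0.17). Its paralog Ntng2 was lower with 129, 259.8 and 689.5 in MDTH, against 564, 734 and 859 in PFC and -1.41 (SE 0.20). Epha8, an ephrin receptor, had 1828, 2028 and 3213 in MDTH, against 153, 273 and 501 in PFC, a difference of 2.94 (SE 0.26). Sema3a, a secreted repellent, had 13.6, 27.5 and 42.4 in MDTH, against 928, 1079.6 and 1131 in PFC, a difference of -5.28 (SE 0.21), and Efnb2, an ephrin, 228, 764 and 1035 in MDTH, against 3087, 3771 and 4524 in PFC, a difference of -2.69 (SE 0.26). Robo1 (1.28, SE 0.07) and Robo2 (-1.44, SE 0.15), receptors for Slit proteins, differed in opposite directions without overlap. Of 9 perineuronal net genes 1 was higher and 4 lower, led by the link protein Hapln1 with 123, 245 and 487 in MDTH, against 995, 1127 and 1370.4 in PFC and -2.32 (SE 0.14). Of 10 neurofilament and internode genes 4 were higher and 6 did not pass, and Nefh, the heavy neurofilament, had 11986, 17304 and 20489 in MDTH, against 4213, 6148 and 8165 in PFC, a difference of 1.41 (SE 0.15). The libraries overlapped for Ntng2 alone among the guidance genes named, and the share of higher genes in that list lay near the share over all genes.

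Among the glial lists the astrocyte list held the most genes that passed. Of 20 astrocyte genes 13 were higher and 2 lower in MDTH, with a median of 0.72. The shares over all genes tested were 19.7% higher and 19.4% lower. Agt, angiotensinogen, which astrocytes of the diencephalon and hindbrain express (ENSMUSG00000031980, GRCm38 chromosome 8, 124556534 to 124569706, minus strand), had 4334, 10107 and 14585 in MDTH, against 164, 262 and 358 in PFC, a difference of 5.15 (SE 0.17). Itih3, a matrix-binding protein, had 6547, 10978 and 19934 in MDTH, against 1636, 2168 and 3719 in PFC, a difference of 2.37 (SE 0.25). Gja1, connexin 43, had 13471, 17184 and 19463 in MDTH, against 8389, 10026 and 10836 in PFC, a difference of 0.82 (SE 0.08). Aldh1l1, a general astrocyte marker, had 2463, 2689 and 3368 in MDTH, against 2244, 2681 and 3383 in PFC and a difference of 0.06, and did not pass, nor did Gfap, with 442, 1377 and 3349 in MDTH, against 1052, 2576 and 8333 in PFC and -1.10. With the title block Gfap was past the threshold and lower in MDTH (adjusted p = 0.0188). Mfge8, a secreted glycoprotein, was lower with 2003, 2922 and 3919 in MDTH, against 5424, 6336 and 7189.7 in PFC and -1.16 (SE 0.11).

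Fewer genes of the other glial and vascular lists passed than of the astrocyte list. Over all genes tested 39.1% passed, with 19.7% higher and 19.4% lower in MDTH. The microglial list, with 5 of 12 genes past the threshold, lay near that share. Of 20 oligodendrocyte genes 2 were higher, the factors Olig1 (0.69, SE 0.11) and Olig2 (0.63, SE 0.15), and 18 did not pass; Mbp, myelin basic protein, had 100992, 120501 and 149373 in MDTH, against 60471, 99239 and 246801 in PFC, with 1 PFC library above all others. Of 12 microglial genes 5 were lower, led by Aif1 with 83, 95.7 and 153 in MDTH, against 189, 219.6 and 283 in PFC and -1.13 (SE 0.17); the other 7 did not pass. Of 12 endothelial and mural genes only Flt1, a receptor for VEGF, passed (0.28, SE 0.10), and it did not with the title block (adjusted p = 0.0704). Lhfpl3, a gene of oligodendrocyte precursors, was higher with 3879, 5533 and 8365 in MDTH, against 721, 951 and 1207 in PFC and 2.59 (SE 0.19), while Pdgfra, their defining receptor, had 2632, 3075 and 3211 in MDTH, against 2098, 2750.3 and 3994 in PFC and did not pass. Of 8 meningeal, 12 choroid plexus and ependymal, 5 blood and 13 mitochondrially encoded genes 0 passed in limma at the adjusted threshold, and 4 of these 38 had an unadjusted p under 0.05. The 3 PFC libraries of high choroid plexus sums stood apart for those markers, with a median list difference of -0.58.

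Markers of regions near the thalamus were uneven among the MDTH libraries. Of 14 habenular genes 7 were higher and 4 lower, of 11 striatal genes 2 higher and 5 lower, and of 8 reticular nucleus genes 2 higher and 4 lower, against 19.7% higher and 19.4% lower over all genes tested. Pou4f1, the defining factor of the habenula, had 10.4, 111 and 3105 in MDTH, against 0, 0.712 and 15.7 in PFC, a difference of 5.78 (SE 0.81), 2.52 between high and 9.04 between low performers. Gpr151, a habenular receptor also found in parts of the thalamus, had 147, 1062 and 3775 in MDTH, against 18.3, 44.6 and 53.7 in PFC, a difference of 4.69 (SE 0.51). Chrna3, a habenular nicotinic subunit, had 22.1, 84.7 and 2502 in MDTH, against 24.9, 27.4 and 46.7 in PFC, a difference of 1.98 (SE 0.62), with 1 MDTH library far above the others. Without the 2 MDTH libraries of highest habenular markers the difference was 4.59 for Pou4f1, 4.12 for Gpr151 and 1.09 for Chrna3. Without the 3 PFC libraries of high choroid plexus markers, and with the title block, Chrna3 did not pass (adjusted p = 0.11 and 0.0664). In the fit without the 2 MDTH libraries the difference was 7.31 for Prkcd, 11.04 for Shox2 and 5.36 for Slc17a6. Of the reticular nucleus markers, Six3 had 11.5, 53.9 and 294 in MDTH, against 8.27, 37.3 and 66.5 in PFC and Ecel1 56.5, 299 and 805 in MDTH, against 84.3, 147 and 286 in PFC, neither past the threshold.

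The tissue difference itself differed between high and low performers for 398 genes, 2.2% of those tested (limma interaction), 316 of them with the value in high performers below that in low performers and 82 above. Among the 1809 genes over 2-fold apart 144 passed this test. Prkcd differed by 8.33 between high performers and by 5.49 between low performers (interaction adjusted p = 0.0166), and Lef1 by 5.39 between high and 3.43 between low performers (adjusted p = 0.0231). Pde1a differed by -6.07 between high and -3.76 between low performers (adjusted p = 0.0203). Reln, a secreted matrix protein of some cortical interneurons, differed by -4.61 between high performers and by 0.18 between low performers (adjusted p = 0.00171). Its mean difference over both groups was -2.21 (SE 0.25) and did not pass with the title block (adjusted p = 0.0841). In MDTH the reticular marker sum was 574 to 884 in low performers and 121 to 195 in high performers, and the habenular sum was also higher in each low performer; their part in these differences was not tested. The count depended on single libraries, with 85 to 830 genes when 1 library was left out, lowest without MDTH low performer 2. Leaving out the 2 MDTH libraries of highest habenular markers, or the 3 PFC libraries of high choroid plexus markers, left 1 low performer library in that tissue. A count of this test from those fits thus cannot tell an effect of the marked libraries from the loss of replicates.

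Some related genes parted between the tissues. Of 29 pairs of related genes, chosen with earlier results of these data known, 13 had 1 member that passed higher and the other lower in MDTH. With pairs chosen in this way, the count does not show how often related genes part. The ratio of a pair was taken within each library, so that scaling cancels, and compared between tissues by an exact two-sided permutation test over the 924 splits of 6 against 6 libraries. The smallest p this allows is 0.00216; it is given for 1 pair at a time, unadjusted, and the choice of the pairs makes it no independent evidence. The log2 ratio of Slc17a6 to Slc17a7 was 2.27 ± 0.66 in MDTH and -6.28 ± 0.33 in PFC (SD, n = 6 each). For Oprm1 to Oprd1 it was 4.61 ± 1.64 in MDTH and -3.96 ± 0.58 in PFC. For Chrm1 to Chrm2 it was -3.24 ± 0.58 in MDTH and 2.66 ± 0.11 in PFC. These pairs, like the ratios of Ntng1 to Ntng2, Cacna1g to Cacna1h, Gabra4 to Gabra5 and Adcy1 to Adcy8, did not overlap between the tissues and had the smallest p the test allows.

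Of the 29 pairs, 4 had an exact p above 0.05. The log2 ratio of Scn2a to Scn8a was 0.18 ± 0.26 in MDTH and 0.29 ± 0.15 in PFC (exact p = 0.377). That of Thra to Thrb was 3.35 ± 0.53 in MDTH and 2.87 ± 0.29 in PFC (exact p = 0.0823). Thra and Thrb were both lower in MDTH, as were Scn2a (-0.42) and Scn8a (-0.31), but the call of Scn8a was lost with the title block (adjusted p = 0.0733). The others were Syt1 to Syt2 and Adarb1 to Adarb2. With the title number as a block (exact sign-flip test over the 6 same-numbered pairs of libraries, smallest possible p 0.0312), the same 4 stayed above 0.05, and so did Grin2a to Grin2b (exact p = 0.0938, against 0.0216 without the block). The same-numbered pairs include low performer 2, whose pairing is in doubt. A p above the threshold does not show that these ratios were alike.

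**Figure D5:**
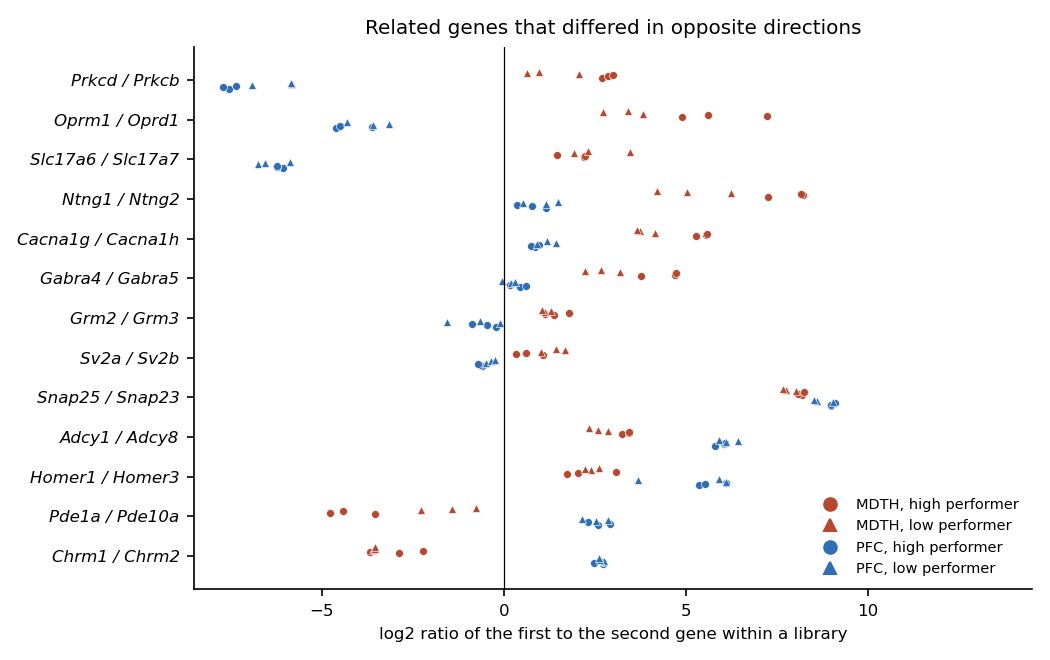
Log2 ratio of the first to the second gene of 13 pairs within each MDTH (red) and PFC library (blue), with circles for high and triangles for low performers. In each pair the MDTH and PFC libraries do not overlap; for Slc17a6 to Slc17a7 all MDTH libraries lie above 0 and all PFC libraries below it.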

How the data were processed

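Total RNA was made into stranded mRNA libraries, per the labels' protocols. The deposited table holds a signal per gene and library, gene counts that the authors divided by normalization factors, per its title, which names DESeq normalized counts. STAR, Salmon and DESeq2 are named in the submitters' processing notes, without version or role; genome build, annotation and strand setting are not given in the sources used here. Low values were only in part whole multiples of the estimated worth of a read, so no count model was run.

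Genes averaging 10 or more normalized counts in MDTH and PFC (18115) were kept, and log2(normalized count + 1) was fitted with limma 3.58.1 (R 4.3.3) as 4 group means with a mean-variance trend, and was checked on simulated data. Names and positions are from GENCODE (GRCm38), and levels per kilobase use the union of exons. Named genes were the 6 regional markers and Gpr12, the 12 genes of largest difference in each direction among those without overlap and with a mean of at least 500 in the higher tissue, up to 4 members of each list with the smallest p in each direction, up to 2 that did not pass, and both members of pairs; some genes and pairs that this takes in are not reported here. Other list members were given as examples, chosen with their values seen. The members, lists and pairs were chosen with earlier results of these data known. Deviations from the group means of same-numbered MDTH and PFC libraries correlated at 0.26 to 0.51 across genes. All others of a performance group correlated negatively, and the title numbers were taken to pair the libraries. Deviations cancel out within a group, so the sign for 1 pair follows in part from the others. The correlation thus cannot show that low performer 2 is a pair. Its MDTH and PFC libraries shared the state of 63.1% of the genes with a low and a high state, as differently numbered pairs did. The title block still includes it. The library names of low performers 2 and 3 carry different numbers in the tissues. Alternatives covered the pseudocount, filter, scaling, blocks, performance groups and each library left out. Gbx2, Icam5, Kcnj13, Pde2a, Pmch and Slc6a9 share at least 20% of their exon bases with another gene tested, and their reads may be shared.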

Additional observations from a re-analysis of the deposited data

Results flagged for a closer look

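Among the 198 genes named, each tissue of 6 libraries was searched for 1 library that stood apart, by the gap of its normalized count to the nearest library as a share of the whole range (Dixon's critical value). This made 396 searches and 30 libraries that stood apart. Chance alone marks about 1 in 20 groups. In MDTH the library that stood apart was the highest, at 2502 for Chrna3, 35418 for Dlg4, 58.7 for Dlx1, 82.8 for Folr1, 97125 for Gabbr1, 9170.3 for Gad1, 9547 for Gad2, 11498 for Necab2, 569.6 for Npy, 7972 for Pde2a, 294 for Six3, 3164 for Slc32a1, 2899 for Thrb and 9695 for Ttr. It was the lowest library in MDTH at 2251 for Flt1. In PFC the highest library stood apart at 283 for Aif1, 12957 for Chrm1, 8542 for Egr3, 848 for Emx1, 49341 for Gabbr1, 31239 for Gabbr2, 1966 for Grm4, 9828 for Kcnc2, 15.7 for Pou4f1, 4455 for Slc6a9 and 3500.4 for Vip. The lowest library of PFC stood apart at 254 for Prkg2, 5373 for Slc6a11, 873 for Syt2 and 4279 for Vamp1. Of the MDTH libraries that stood apart as highest, those of Chrna3, Dlg4, Gabbr1, Gad1, Gad2, Necab2, Npy, Pde2a, Six3 and Slc32a1 were low performers.

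The difference between MDTH and PFC was not the same in high as in low performers for 22 of the named genes (limma interaction, adjusted p below 0.05 over all genes tested). The difference in high performers minus that in low performers (log2) was 1.31 for Adarb1, 2.27 for Adarb2, 2.02 for Grid2ip, 1.21 for Kcnq3, 1.95 for Lef1, 2.84 for Prkcd, 1.19 for Prkch and 1.27 for Rorb. It was negative, at -2.60 for Atp2b4, -2.78 for Cckbr, -1.60 for Cnr1, -2.37 for Dkk3, -3.20 for Gad2, -2.82 for Hs3st2, -3.85 for Htr1a, -4.87 for Htr2a, -2.78 for Kcnh1, -1.90 for Ntng2, -2.30 for Pde1a, -0.995 for Prkca, -4.79 for Reln and -2.98 for Sst. Performance groups also differ in the style of the library names and in the reticular and habenular marker sums of MDTH, and the part of these in the values was not tested.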

How the results depend on the processing

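The counts of genes that passed, and of those over 2-fold apart without overlap, stayed within 1.5 times under the other pseudocounts, filters, scalings, blocks and single libraries left out. The counts that passed were 2601 higher and 2613 lower in high performers alone, and 1860 higher and 1973 lower in low performers alone, where 971 were over 2-fold higher and 1016 lower without overlap. Leaving out 1 library gave 3203 to 3745 genes higher and 3184 to 3573 lower. Genes whose tissue difference differed between performance groups numbered 398, but 622 with all 18 libraries, 85 to 830 with 1 library left out, 14 without the 2 MDTH libraries and 0 without the 3 PFC libraries. Both sets of libraries were left out after seeing the data, and leaving out either set left 1 low performer library in that tissue. The counts of genes without these sets thus cannot tell an effect of the marked libraries from the loss of replicates. No conclusion is drawn from them. The title block changed no named call beyond those given with their genes, apart from Folr1, which then passed (adjusted p = 0.022). Of the pairs it ended the call of Grin2a to Grin2b, whose ratio differs by -0.39 in both tests. With the number in the library name as a block instead, 7 named genes no longer passed (Adora2a, Chrm2, Chrna3, Scn8a, Shank1, Slc17a8 and Syt1) and Gfap and Kcnq3 did. The tissue difference of that fit rests on the libraries whose number occurs in both tissues, 44, 88, 165 and 130. Of these only 130 is a low performer. With 1 library left out, Flt1 did not pass in 10 of 12 fits, Grm5, Scn8a and Shank1 in 9, Adora2a and Slc17a8 in 7 and Chrna3 in 3, at an adjusted p of at most 0.115.

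Without the one set and without the other alike, the thalamic list counted 23 genes higher, the cortical list 19 lower, the inhibitory list 18 lower and the astrocyte list 13 higher. Without the 2 MDTH libraries 9 named genes no longer passed (Adora2a, Chrm2, Dlg4, Flt1, Grm5, Scn8a, Shank1, Slc17a8 and Syt1), and without the 3 PFC libraries 5 (Adora2a, Chrm2, Chrna3, Flt1 and Scn8a). Calls were gained as well. Without the 3 PFC libraries this held for Clic6 (difference 1.49), Pdgfra (0.32) and Vamp2 (-0.28), and without the 2 MDTH libraries for Kcnq3 (0.53). Each of these fits leaves 1 low performer library in that tissue. Values that changed sign were near 0 or spread widely. Without the 3 PFC libraries of high choroid plexus markers, the difference was 0.061 for Folr1, -0.34 for Gpr3, -0.033 for Gria1, 0.60 for Kcnj13, 0.079 for Kl, -0.040 for Syp and 0.25 for Ttr, and the list median 0.17 for the glutamate and GABA transporters and -0.34 for the constitutive cAMP receptors. Without the 2 MDTH libraries of highest habenular markers, the difference was -0.028 for Aldh1l1, -0.10 for Clic6 and 0.11 for Fos. In high performers alone, the difference was -0.95 for Ecel1, 0.021 for Fos, -0.024 for Foxp1, -0.22 for Gpr3, -0.17 for Gria1, 0.11 for Grin2b and 0.075 for Slc1a3, and the list median 0.18 for the glutamate and GABA transporters, -0.11 for the AMPA, kainate and NMDA receptor subunits, 0.055 for the potassium channels and -0.36 for the thyroid, retinoid and Wnt pathway genes. In low performers alone, the difference was 0.56 for Bdnf, -1.18 for Clic6, -0.33 for Kcnq3, 0.18 for Reln and 0.15 for Syt2, and the list median 0.16 for the monoamine receptors. With a pseudocount of 10, the difference was -0.015 for Clic6. With the number in the library name as a block, the difference was -0.14 for Ecel1, -0.23 for Gpr3, -0.10 for Gria1 and 0.0051 for Slc1a3, and the list median 0.19 for the glutamate and GABA transporters and -0.016 for the AMPA, kainate and NMDA receptor subunits. With a mean of at least 100, the list median was -0.23 for the thyroid, retinoid and Wnt pathway genes. With 1 library left out, the difference ranged over -0.015 to 0.12 for Aldh1l1, -0.31 to 0.070 for Bdnf, -0.37 to 0.75 for Clic6, -0.14 to 0.17 for Gpr3 and -0.013 to 0.22 for Pdgfra, the list median over -0.13 to 0.15 for the glutamate and GABA transporters. The log2 ratio of a pair, MDTH minus PFC, then ranged over -0.47 to -0.30 for Grin2a to Grin2b, -0.13 to 0.68 for Syt1 to Syt2, 0.38 to 0.65 for Thra to Thrb and 0.33 to 0.55 for Adarb1 to Adarb2, and the cause of these changes was not tested. Genes near the minimum mean of 10 rest on few reads a library, which limits their precision; what size of difference this depth could show for them was not tested.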

Other observations

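For 65 genes the libraries fell into a low and a high state in both tissues, with a gap of more than 4 on the log2 scale and a highest value of at least 100 normalized counts. MDTH and PFC libraries with the same title number were in the same state for 92.3%, 93.8% and 93.8% of these genes among the 3 high performers, and for 98.5% in low performer 1 and 96.9% in low performer 3. In low performer 2 the share was 63.1%, inside the range of the differently numbered pairs, 29.2% to 78.5%. The library names of low performers 2 and 3 carry different numbers in MDTH and in PFC, while those of the other 4 pairs carry the same number in both tissues.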
